A study of Mus musculus with 27 samples.

Results

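The TCF/LEF transcription factors of mouse skin were examined through the 4 genes Tcf7, Tcf7l1, Tcf7l2 and Lef1. They were picked out by symbol, with earlier results of these data known, and are 4 of 51906 genes in the RNA-seq table and 4 of 32285 genes in each single cell matrix. After the filter on low counts, 3 of the 4 were tested in RNA-seq (Tcf7, Tcf7l1 and Tcf7l2) and 1 in the single cell cultures (Tcf7l2), while Lef1 stayed below the filter in both.

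TCF/LEF proteins are the DNA-binding partners of β-catenin, the effector of canonical WNT signaling. When WNT ligands are absent, a destruction complex built on AXIN and APC degrades β-catenin, and TCF/LEF proteins recruit TLE co-repressors to their targets. When WNT signals arrive, β-catenin enters the nucleus and turns the same sites to activation. In hair follicles, LEF1 is known from the matrix and the precursors of the hair shaft, where WNT signaling is strong, TCF7L1 (also called TCF3) and TCF7L2 (TCF4) are known from stem cells and the outer root sheath, and TCF7 (TCF1) and LEF1 are also factors of T cells.

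The study grew hair follicle stem cells (HFSCs) as 3D colonies to ask how all-trans retinoic acid (atRA) acts on their fate. RNA-seq was made from wild-type and Rxra cKO cultures in medium with fetal bovine serum (FBS), or in serum-free B-27 medium with atRA and the protein kinase C inhibitor Gö6976 (atRA+PKCi), so that the change of medium joins serum, supplement, retinoid and inhibitor. HFSCs came from telogen (resting) back skin at postnatal day 55, with 2 mice per genotype, each grown in both media, so spread is between mice, and the lines had been set up on inactivated feeder cells. In the cKO, a Cre driven by Sox9 and activated by tamoxifen deletes floxed alleles of Rxra, which encodes a partner of the retinoic acid receptors, and marks the cells with YFP. Wild-type anagen (growing) back skin from 2 mice at postnatal day 32 was profiled by single cell RNA-seq after a sort against blood, endothelial, PDGFRA+ and KIT+ cells. CD34+ HFSCs of the same 2 mice were cultured in 7 media and pooled by hashtag antibodies, namely FBS, B-27 alone, atRA+PKCi, BMP2/4, the WNT agonist R-spondin (Rspo), Rspo+BMP2/4, and the latter with an inhibitor of retinoic acid receptors (RARi). All but FBS and B-27 also held atRA+PKCi.

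The 8 RNA-seq libraries held 25150265 to 35879777 estimated counts. Rxra itself lay between 122 and 149 CPM in wild-type FBS (CPM is the count scaled to a common library total), between 143 and 147 in wild-type atRA+PKCi, between 95.7 and 97.2 in Rxra cKO FBS, and between 145 and 148 in Rxra cKO atRA+PKCi. It was thus lower in cultures labelled cKO only in FBS (log2 fold change -0.49, adjusted p = 0.00264) and not in atRA+PKCi (0.01, adjusted p = 0.927). These values count reads over the whole gene and do not isolate the deleted part, so the groups are named here by their labels. The 7 fibroblast markers, which feeder cells would carry, summed to 11.7 and 7.73 CPM in FBS and 1.32 and 4.44 in atRA+PKCi for wild-type, and to 6.19 and 8.49 and to 4.50 and 5.48 for cKO, with Lum at 0 throughout. They were thus lower in atRA+PKCi without overlap in both genotypes, and Pdgfra was called lower there in both (log2 fold changes -2.91 and -1.66, adjusted p = 1.70e-05 and 0.000503) and Dcn in wild-type (-4.66, adjusted p = 0.00578). T cell markers summed to 0.0386 to 0.222 CPM in wild-type and 4.90 to 7.87 CPM in libraries labelled cKO, most of it Trbc2 (0 CPM in wild-type, 6.50 and 5.11 on average in the 2 cKO groups), with Cd3d and Cd3e at 0 throughout.

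The 4 genes sit on different chromosomes of GRCm38 (GENCODE M21). Tcf7 (ENSMUSG00000000782) spans chr11:52252371-52283014 on the minus strand with 2625 exonic bases, Tcf7l1 (ENSMUSG00000055799) chr6:72626378-72789254 on the minus strand with 3924, Tcf7l2 (ENSMUSG00000024985) chr19:55741820-55933654 on the plus strand with 8775, and Lef1 (ENSMUSG00000027985) chr3:131110471-131224356 on the plus strand with 8788. Exons of the antisense genes Gm15401 and Gm43352 overlap 179 bases of Tcf7l1 exons and 1208 bases of Lef1 exons, and whether strand was used in counting is not given in the sources used here. To show where the family's own motif lies upstream of its members, the promoter windows of RefSeq (GRCm38.p6), 250 bases before to 50 after each gene start, were searched on both strands for the TCF/LEF core CTTTG, which reads CAAAG on the opposite strand. All 4 members matched a window, 9 windows in all. The core was found in 53.9% of 32851 windows genome-wide, so a match is common. It was absent from both Tcf7 windows and present in all windows of the other 3 members. Lef1 windows 1 and 2 overlap and hold the same cores. Below are the stretch before the main Tcf7l2 start, whose gene responded to medium in culture, and the stretch before a start inside Lef1, which held 3 cores. Both lie on the plus strand outside annotated exons, and capitals mark the core.
Tcf7l2, chr19:55741670-55741729: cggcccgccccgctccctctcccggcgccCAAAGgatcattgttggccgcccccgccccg
Lef1, chr3:131156104-131156193: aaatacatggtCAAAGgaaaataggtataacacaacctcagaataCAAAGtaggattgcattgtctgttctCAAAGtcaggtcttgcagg

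The half-site of retinoid receptors AGGTCA, present in 16.3% of all windows, was found in the second Tcf7 window at 13 bases before the start. These matches are strings of letters and not measured binding, which was not analysed here.

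In HFSC cultures, the level of Tcf7l2 was higher in atRA+PKCi, Tcf7 differed by little between media, and Lef1 was near the limit of detection. Tcf7l1 was lower in cKO than in wild-type cultures in FBS, by -1.07 to -0.37 in log2 when single libraries were left out. That call depended on single libraries, as given below. Wild-type cultures of mice 1 and 2 had Tcf7l2 at 6.93 and 5.41 CPM in FBS and at 12.7 and 11.2 CPM in atRA+PKCi. In cultures labelled cKO it stood at 7.80 and 6.70 CPM in FBS and at 9.69 and 10.8 CPM in atRA+PKCi. Both atRA+PKCi libraries lay above both FBS libraries in each genotype, with no overlap.

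Tcf7l2 was 1.93-fold higher in atRA+PKCi in wild-type (log2 fold change 0.95, SE 0.15, 95% interval 0.60 to 1.30, adjusted p = 0.000877, edgeR's quasi-likelihood test over 15965 genes). It was 1.41-fold higher in the cultures labelled cKO (0.50, SE 0.15, 0.15 to 0.85, adjusted p = 0.0283). Between the media, 27.2% of all genes were called higher and 26.6% lower in wild-type, and 20.8% higher and 22.2% lower in cKO, so a call was a common outcome in both. The fibroblast markers above moved the opposite way between media, and their part in the difference was not tested. The wild-type call held without any 1 of its 4 libraries. The cKO call was lost without cKO FBS replicate 2 (0.39, adjusted p = 0.164) and without either atRA+PKCi library (0.60 and 0.42, adjusted p = 0.0576 and 0.158), and by DESeq2 (0.50, adjusted p = 0.0720). The medium effects of the genotypes differed by 0.45 (-0.04 to 0.95, adjusted p = 0.171), which did not pass the test.

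**Figure D1:**
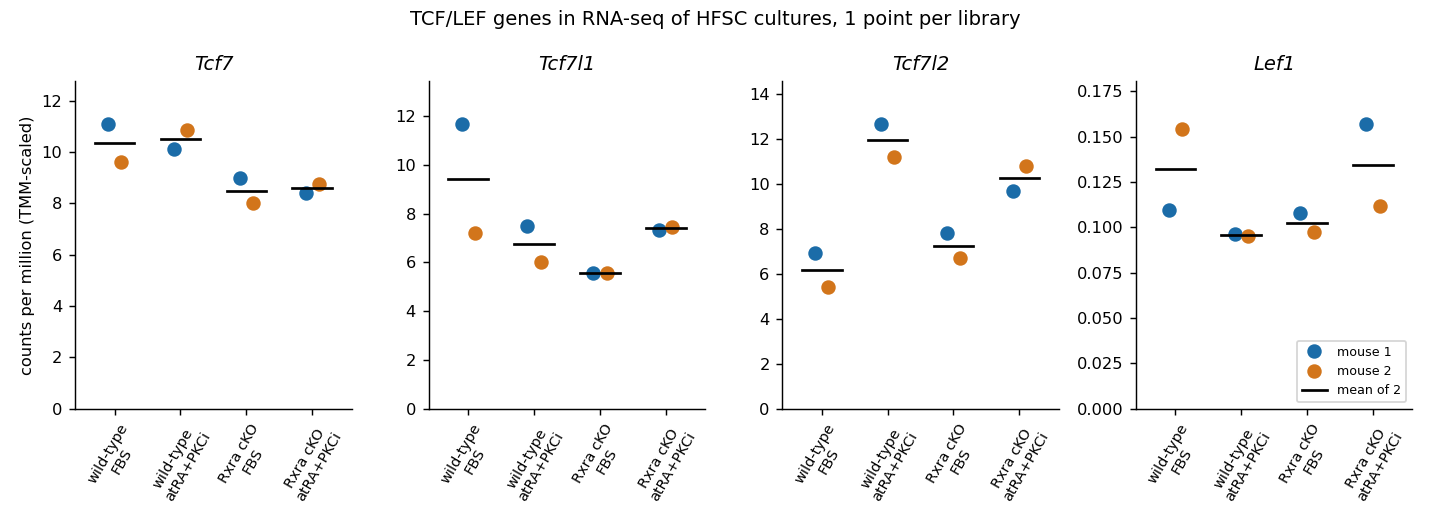
Level of each TCF/LEF gene in the 8 RNA-seq libraries, in CPM with each axis starting at 0. Points are libraries colored by mouse number, which names different mice in the 2 genotypes, and bars are means of 2. Tcf7l2 is higher in atRA+PKCi than in FBS in both genotypes, 1 wild-type FBS library stands highest for Tcf7l1, and Lef1 stays between 0.0950 and 0.157 CPM.

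Tcf7l1, best known as a repressor of WNT targets, had 11.7 and 7.19 CPM in FBS cultures of wild-type mice and 7.47 and 6.02 CPM in their atRA+PKCi cultures. In cultures labelled cKO it stood at 5.57 and 5.57 CPM in FBS and at 7.33 and 7.45 CPM in atRA+PKCi. The 2 wild-type FBS libraries spread more than those of any other group, and both lay above both cKO FBS libraries. The wild-type media overlapped, while the cKO media did not.

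In FBS, Tcf7l1 was lower in the cultures labelled cKO (log2 fold change -0.76, SE 0.22, 95% interval -1.26 to -0.26, adjusted p = 0.0218), where 20.5% of all genes were called lower and 22.3% higher (3275 and 3565 genes, or 2586 and 4378 with upper quartile factors). The call rested on wild-type FBS replicate 1, without which the difference was -0.37 (adjusted p = 0.144), and was also lost without cKO FBS replicate 1 (-0.77, adjusted p = 0.0842) or 2 (-0.76, adjusted p = 0.0945). In atRA+PKCi the genotypes differed by 0.13 (adjusted p = 0.658). The medium effect was -0.49 in wild-type (-0.98 to 0.01, adjusted p = 0.0892) and 0.41 in cKO (-0.09 to 0.91, adjusted p = 0.170), and neither was called. The fibroblast markers were lower in atRA+PKCi in both genotypes, and their part here was not tested. The difference of the medium effects was -0.89 (SE 0.31, -1.59 to -0.19, adjusted p = 0.0671). With the mouse number as a block, the wild-type medium effect (-0.46, adjusted p = 0.0365) and the difference between genotypes (-0.86, adjusted p = 0.0276) passed the test. Without wild-type FBS replicate 2, where Tcf7l1 was the lower of the pair, they also passed (-0.80, adjusted p = 0.00426, and -1.20, adjusted p = 0.00495).

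Tcf7 stood at 11.1 and 9.62 CPM in FBS and 10.1 and 10.9 in atRA+PKCi in wild-type cultures, 8.99 and 8.00 in cKO FBS and 8.41 and 8.75 in cKO atRA+PKCi. Media overlapped within each genotype, and all 4 libraries labelled cKO lay below all 4 wild-type libraries. The medium effect was 0.02 in wild-type (SE 0.12, 95% interval -0.26 to 0.29, adjusted p = 0.920) and 0.01 in cKO (adjusted p = 0.937). The difference between genotypes was -0.29 in FBS (adjusted p = 0.0905) and -0.29 in atRA+PKCi (adjusted p = 0.0833), and did not pass the test in either medium. The summed T cell markers above were higher in cKO, most of it Trbc2, with Cd3d and Cd3e at 0 in all libraries. The part of T cell RNA in the Tcf7 values was not tested.

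Lef1 had 3 and 4 counts in the FBS cultures of wild-type mice, 2.624 and 3 in their atRA+PKCi cultures, 3 and 3 in cKO FBS and 6 and 3 in cKO atRA+PKCi. These are 0.132, 0.0956, 0.103 and 0.134 CPM on average, where 3 counts over a group correspond to 0.0461 to 0.0563 CPM. The groups overlapped, and no difference in Lef1 was detectable at this depth. Fewer cells with a transcript and less RNA per cell cannot be told apart in such bulk libraries.

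**Figure D2:**
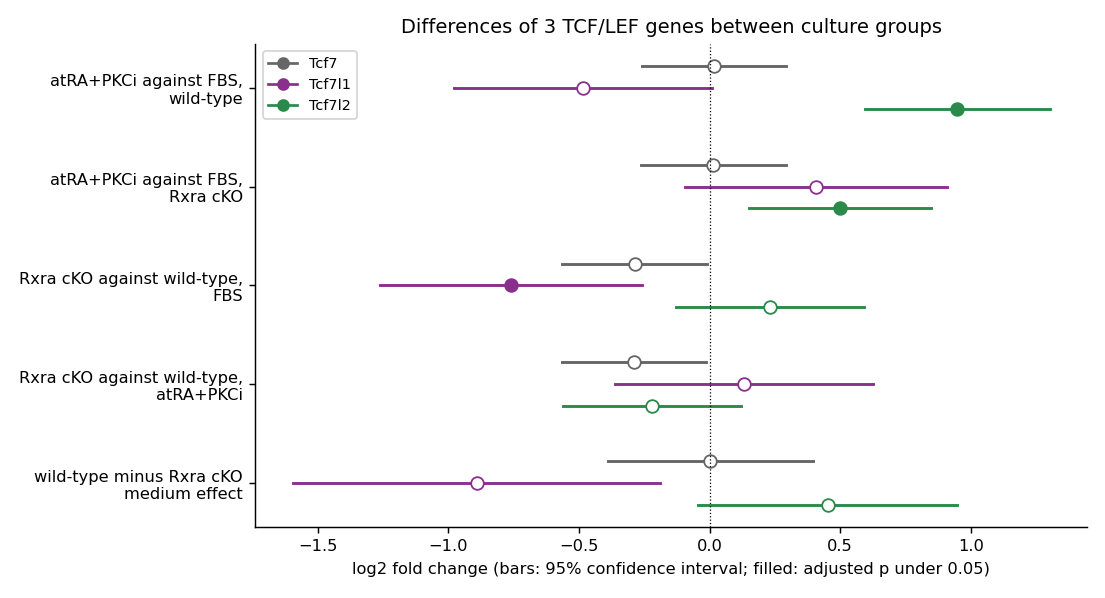
Log2 fold changes of the 3 tested TCF/LEF genes in 5 comparisons of cultured HFSCs, with 95% confidence intervals from the fit over 8 libraries. Filled points passed adjusted p under 0.05. Tcf7l2 passed in both medium comparisons and Tcf7l1 between genotypes in FBS, while every interval of Tcf7 for the medium spans 0.

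Per kilobase of exon, the order of levels was Tcf7, Tcf7l1, Tcf7l2 and Lef1 in all 4 groups. These lengths join the exons of all annotated transcripts, 22 for Tcf7l2 and 2 for Tcf7, and the order depends on them. In plain CPM, Tcf7l2 was highest on average in atRA+PKCi, at 11.9 against 10.5 for Tcf7 in wild-type and 10.2 against 8.58 in cKO. In the single cell cultures below, BMP2/4 cells of both mice together had 270 CPM of Tcf7l2, 16.6 of Tcf7 and 3.80 of Tcf7l1. Tcf7 averaged 3.24 to 3.99 CPM per kilobase over the groups, Tcf7l1 1.42 to 2.40, Tcf7l2 0.703 to 1.36 and Lef1 0.0109 to 0.0153. The closest neighbours were Tcf7l1 and Tcf7l2 in wild-type atRA+PKCi, where the lowest Tcf7l1 library had 1.53 and the highest Tcf7l2 library 1.44 CPM per kilobase, so no neighbours overlapped within a group. Over the 8 libraries the log2 level of Tcf7l2 correlated with that of Tcf7l1 at -0.08 and of Tcf7 at 0.14, and Tcf7 with Tcf7l1 at 0.53. The genes most like Tcf7l2 were Ap2b1 (Pearson r = 0.993), AC141438.1 and Txlna, those most like Tcf7l1 were Prkd2 (0.972), Zfat and Fbxo42, and those most like Tcf7 were Adnp (0.980), 8030462N17Rik and Trak1. These correlations describe 8 libraries that share mice and media, and the highest of 15964 genes will be high in so few points.

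Around the TCF/LEF genes, the pathway was counted in 4 groups, to be read against the 27.2% of all genes called higher and 26.6% called lower with medium in wild-type and the 20.8% and 22.2% in cKO. Most of these counts lie near those shares. Of 11 genes for β-catenin and its partners, 3 rose and 2 fell in wild-type atRA+PKCi (median log2 fold change 0.15, against 0.03 over all genes tested), and 4 rose and 1 fell in cKO. Ctnnb1, which encodes β-catenin, rose in wild-type from 577 ± 26.6 to 1148 ± 2.55 CPM (SD, n = 2; log2 fold change 0.99, adjusted p = 4.58e-06). In cKO it rose from 599 ± 3.08 to 767 ± 2.90 CPM (0.36, adjusted p = 0.00325). Jup, whose product plakoglobin is the junctional relative of β-catenin, fell in wild-type, 1106 ± 188 against 318 ± 26.8 CPM (-1.80, adjusted p = 5.74e-06), and in cKO, 691 ± 75.9 against 440 ± 8.14 CPM (-0.65, adjusted p = 0.00335).

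Of 11 co-repressors and TCF kinases, 2 rose and 5 fell in wild-type and 3 rose and 2 fell in cKO. Tle4, a Groucho-type co-repressor, fell in wild-type, 6.74 ± 0.738 against 2.55 ± 0.113 CPM (-1.40, adjusted p = 0.000103), and in cKO, 5.75 ± 0.153 against 2.77 ± 0.0310 CPM (-1.05, adjusted p = 0.000846). Tle3, another of this family, stood at 90.8 ± 15.7 and 93.3 ± 3.74 CPM in wild-type FBS and atRA+PKCi (0.04, adjusted p = 0.779). Of 12 genes of the destruction complex and Dishevelled, 5 rose and 4 fell in wild-type, and 4 rose and 1 fell in cKO. Without at least 1 of the 4 libraries compared, the wild-type calls of Chd8, Hipk2, Apc, Btrc, Fbxw11 and Dvl2 were lost, as were the cKO calls of Pygo1, Chd8, Tle3, Btrc and Dvl1, and of Bmp4 among the targets described next.

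Of 17 canonical WNT targets, 11 were expressed enough to be tested. In atRA+PKCi, 4 rose in wild-type (Notum, Znrf3, Ccnd1 and Edar) and 6 in cKO (Axin2, Notum, Apcdd1, Myc, Bmp4 and Edar), and Cd44 fell in both. Edar, the receptor of ectodysplasin in hair placodes, had 0.729 ± 0.157 CPM in wild-type FBS and 13.6 ± 0.682 in atRA+PKCi (4.21, adjusted p = 2.78e-07). In cKO it had 0.666 ± 0.0251 and 5.02 ± 0.0445 CPM (2.91, adjusted p = 6.16e-06). Notum, a secreted inhibitor of WNT, had 0.822 and 10.3 CPM in the wild-type media (3.63, adjusted p = 1.76e-06) and 0.306 and 1.75 CPM in those of cKO (2.49, adjusted p = 8.97e-05).

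Axin2, the negative feedback regulator often used as a readout of β-catenin, had 5.52 ± 0.867 and 5.45 ± 0.00242 CPM in the 2 wild-type media (-0.02, adjusted p = 0.925). In cKO it rose from 4.19 ± 0.0209 to 15.1 ± 1.04 CPM (1.85, adjusted p = 1.55e-05), and the difference between the medium effects was -1.87 (adjusted p = 0.000299). Apcdd1, another inhibitor of the pathway, rose in cKO from 0.407 to 4.17 CPM (3.34, adjusted p = 0.000284) and stood at 0.627 and 1.34 CPM in wild-type (1.10, adjusted p = 0.0501). The median over the 11 targets, in log2 fold change, was -0.00251 for wild-type and 1.77 for cKO, beside 0.03 and 0.02 over all genes.

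Between genotypes in FBS, where 22.3% of all genes were called higher and 20.5% lower, the β-catenin group had 2 of 11 genes higher and 4 lower, the co-repressors 3 and 3, the destruction complex 1 and 3 of 12, and the targets 1 and 3 of 11. In atRA+PKCi these counts were 4 and 4, 1 and 2, 2 and 1, and 6 and 3, where 23.0% of all genes were called higher and 20.2% lower. Calls lost without at least 1 library were those of Cby1, Ep300, Ctbp1, Hic1, Nlk and Gsk3a in FBS and of Jup, Pygo1, Pygo2, Cby1, Ep300, Myc, Tnfrsf19 and Bmp4 in atRA+PKCi. Tle2 was lower in cKO in both media, at 1.52 against 4.26 CPM in FBS (-1.49, adjusted p = 0.000213) and 2.09 against 7.12 CPM in atRA+PKCi (-1.77, adjusted p = 5.22e-05).

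In the single cell cultures, Tcf7l2 had 15 to 955 UMIs in each sum of cells, and the other 3 members were sparse. These cultures hold no cell type that should lack the genes, so no background share was measured and cells with a UMI are not read as cells expressing the gene. Of 449 and 208 barcodes (mice 1 and 2), 222 and 78 passed the filters with a single hashtag. They fell unevenly, with 113 and 13 cells in BMP2/4, 92 and 27 in Rspo+BMP2/4, 5 and 21 with RARi, 5 and 6 in Rspo, 5 and 10 in B-27, 2 and 1 in atRA+PKCi and 0 and 0 in FBS. UMIs were summed per mouse and condition and are given as CPM, and sums of under 5 cells were not tested.

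In B-27, Tcf7l2 had 169 and 118 CPM from 32 and 26 UMIs. It had 109 and 110 in Rspo (15 and 16 UMIs), 258 and 350 in BMP2/4 (955 and 179 UMIs), and 315 and 511 in Rspo+BMP2/4 (821 and 364 UMIs). Both conditions with BMP2/4 lay above B-27 and Rspo in both mice, with no overlap. This separation depended on the rule for hashtags, since with the 70% rule Rspo of mouse 2 had 269 CPM and BMP2/4 of mouse 1 had 258. With RARi it stood at 1383 and 382 CPM, and in mouse 1 a single cell held 76 of the 133 UMIs of that sum. The 2 atRA+PKCi cells of mouse 1 gave 201 CPM and the 1 cell of mouse 2 gave 430 CPM (15 and 19 UMIs). Tcf7l2 was counted in 96 of 113 and 10 of 13 cells in BMP2/4 and in 77 of 92 and 23 of 27 in Rspo+BMP2/4.

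None of the 5 comparisons of Tcf7l2 passed the call rule used for these sums. The rule was an adjusted p below 0.01 and a change above 1 in log2 either way. BMP2/4 and Rspo cultures also held atRA+PKCi and B-27 did not, so each comparison with B-27 joins these additions. BMP2/4 against B-27 gave 1.19 (95% interval -0.01 to 2.39, adjusted p = 0.212, edgeR's quasi-likelihood test over 6265 genes), where 0.431% of genes were called higher and 5.28% lower. Rspo against B-27 gave -0.16 (-1.46 to 1.14, adjusted p = 0.900), where 0.0958% of genes were called higher and 1.9% lower. Rspo+BMP2/4 against Rspo gave 1.73 (0.48 to 2.99, adjusted p = 0.486), and against BMP2/4 0.38 (-0.74 to 1.51, adjusted p = 1). Adding RARi gave 0.76 (-0.38 to 1.90, adjusted p = 0.959), and -0.10 without the sum of mouse 1. In the last 3 comparisons 0.0% of genes were called in either direction by edgeR, although 423, 44 and 232 genes had an unadjusted p under 0.05. DESeq2 called 7 genes in Rspo+BMP2/4 against Rspo and 0 in the other two.

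Tcf7 had 0 UMIs in the 5 and 10 B-27 cells and 2 and 1 UMIs in Rspo. It had 57 and 13 UMIs in BMP2/4 (15.4 and 25.4 CPM) and 33 and 12 in Rspo+BMP2/4 (12.7 and 16.9 CPM), and 0 and 4 with RARi. The counts of 0 in B-27 allow up to 15.9 and 13.7 CPM (3 counts, counting error only), and in mouse 1 this covers the levels in both BMP2/4 and Rspo+BMP2/4, so no fold is given. Tcf7 did not pass the filter on low counts. In alternatives that fitted it, BMP2/4 against B-27 was not called, with an adjusted p of 0.0139 for edgeR with no filter, 0.0923 for DESeq2, and 0.219 and 0.178 for edgeR without either B-27 sum.

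Lef1 had 0 UMIs in B-27, atRA+PKCi and Rspo, 8 and 3 in BMP2/4, 18 and 0 in Rspo+BMP2/4, and 0 and 7 with RARi. The 2 mice thus split in Rspo+BMP2/4. With RARi, the 0 of mouse 1 rests on 5 cells and 96141 UMIs of all genes, against 602601 in mouse 2, and shows no split. No order can be read. Tcf7l1 had 1 and 1 UMIs in B-27, 0 and 0 in Rspo, 15 and 1 in BMP2/4 (4.06 and 1.96 CPM), 7 and 4 in Rspo+BMP2/4, and 2 and 7 with RARi. Its levels overlapped between B-27 (5.29 and 4.55 CPM), BMP2/4 and Rspo+BMP2/4 (2.69 and 5.62 CPM) within counting error. Of the pathway, 1 of 9 co-repressors tested was lower in BMP2/4 than in B-27 (Tle4, log2 fold change -3.14, adjusted p = 0.00114). So was 1 of 7 destruction complex genes (Fbxw11, -2.01, adjusted p = 0.00852), where 5.28% of all genes were. This comparison joins atRA+PKCi to BMP2/4, and their parts cannot be told apart in it. In Rspo against B-27, which also joins atRA+PKCi, Tle4 was at -2.20 and Fbxw11 at -2.43, and neither was called. The call of Tle4 was kept only without the B-27 sum of mouse 1, and that of Fbxw11 only without the B-27 sum of mouse 2, among the 4 fits that left out a sum.

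**Figure D3:**
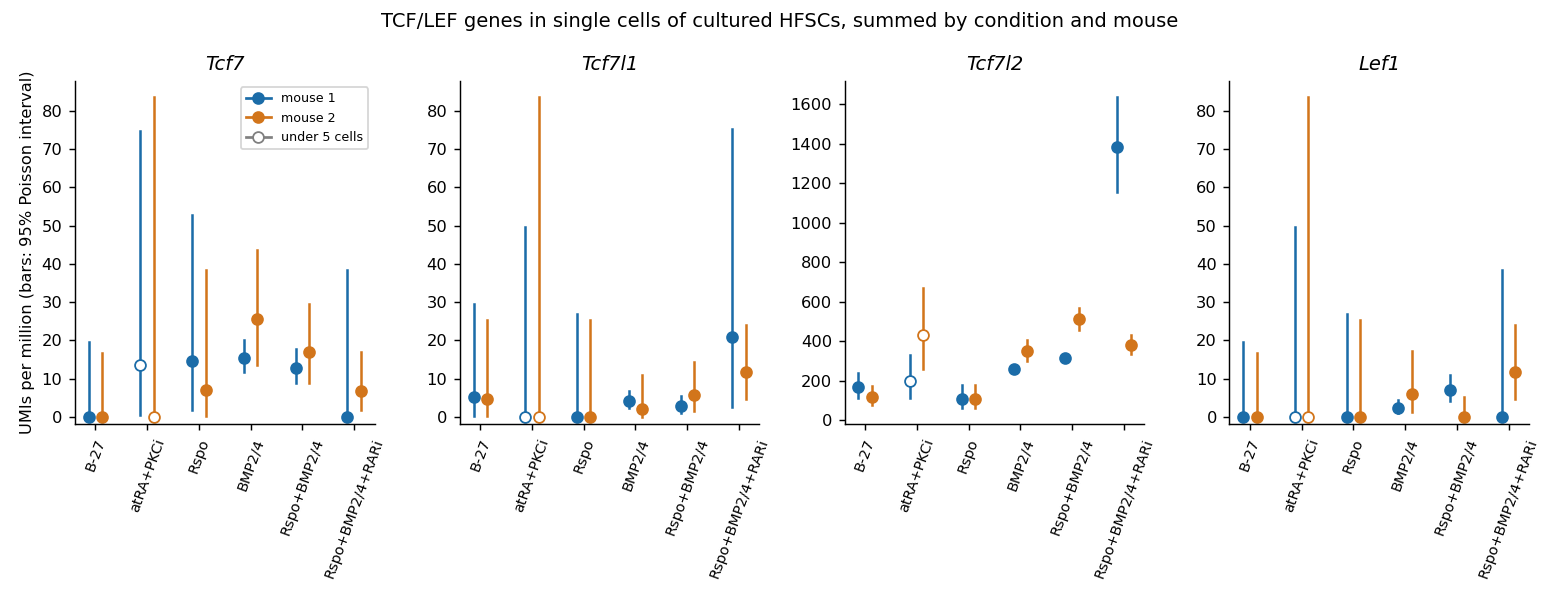
TCF/LEF genes in cultured HFSCs by condition and mouse, as CPM of the summed cells, with exact 95% Poisson intervals that cover counting error only. Open points are sums of under 5 cells. Tcf7l2 is higher in the 2 conditions with BMP2/4 than in B-27 and Rspo in both mice, the RARi sum of mouse 1 stands apart, and the other 3 genes rest on few UMIs. The separation of Tcf7l2 depended on the rule for hashtags, and none of its comparisons passed the call rule.

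In anagen skin the family divided between the named compartments of the follicle. Among the named classes, Lef1 was highest in hair shaft-like and dermal papilla-like cells and Tcf7 in T cell-like and medulla-like cells, whereas Tcf7l1 and Tcf7l2 were highest in the outer root sheath, the outer layer of the follicle that is continuous with the stem cell niche. Of 16521 and 16068 barcodes, 13526 and 13269 cells were used, with medians of 8653.5 and 10375 UMIs, and 62 barcodes occurred in both matrices. They formed 41 clusters, of which 26 were named from marker genes into 15 classes, and 15 with 6607 cells were left unnamed. The members were kept out of the genes used for clustering, so their levels are described here with no test. Despite the sort against PDGFRA, 8831 cells were fibroblast-like, and 3 fibroblast clusters came mostly from 1 mouse (283 and 2003, 1797 and 89, 1001 and 19 cells). Hair matrix-like cells were a single cluster led by genes of proliferation (Stmn1, Pclaf, Hmgb2). All 6 matrix markers were detected, but none was among its leading genes, and the name moved to other cells in settings given below.

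Lef1 stood at 1079 and 1397 CPM in hair shaft medulla-like cells, 997 and 1399 in hair shaft cortex and cuticle-like cells, and 1115 and 939 in dermal papilla-like cells, and these 3 classes overlapped between mice. Hair matrix-like cells followed at 532 and 566 CPM, below all 3 without overlap, and T cell-like cells at 404 and 457. Inner root sheath-like cells had 140 and 130 CPM, outer root sheath-like cells 45.2 and 55.2, and fibroblast-like cells 32.4 and 39.0. An unnamed cluster led by Cdh6, Nhs and Robo1 also had 664 and 653 CPM. Its Tcf7l2 stood at 297 and 369 CPM, beside 288 and 324 in the sheath cluster led by Scrg1, so high Lef1 and Tcf7l2 also occurred in the same cluster. Matrix, medulla and cortex classes together with the dermal papilla held most Lef1 transcripts, at 23.3%, 23.3%, 20.1% and 7.86% of its UMIs, while they held 10.8%, 4.79%, 4.41% and 1.97% of all UMIs.

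Tcf7 was highest in T cell-like cells, at 107 and 140 CPM from 19 and 40 UMIs in 40 and 50 cells. Medulla-like cells had 40.2 and 45.1 CPM, melanocyte-like 36.1 and 29.4, cortex and cuticle-like 19.7 and 24.8, dermal papilla-like 19.7 and 23.6 and matrix-like 18.3 and 22.7. Mural and dermal sheath-like cells had 31.9 and 27.1 CPM, overlapping the melanocyte-like class. T cell-like cells stood above medulla-like cells, and those above melanocyte-like cells, without overlap, and classes from cortex to matrix overlapped. Inner root sheath-like cells lay below them at 12.5 and 15.1 CPM, and outer root sheath-like cells at 1.97 and 2.49. The few T cell-like cells held 2.08% of Tcf7 UMIs with 0.170% of all UMIs, against 21.0% in matrix-like and 19.6% in medulla-like cells.

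Tcf7l1 was highest in outer root sheath-like cells at 291 and 445 CPM, above every other named class without overlap. Mural and dermal sheath-like cells had 177 and 204, endothelial-like 171 and 185, fibroblast-like 145 and 182 and dermal papilla-like 132 and 182 CPM, and each overlapped its neighbour. At the low end were matrix-like cells at 30.0 and 20.9, cortex and cuticle-like at 14.9 and 18.6 and inner root sheath-like at 12.6 and 14.5 CPM. Within the sheath, the cluster led by Fhod3, Grm7 and Kcnb2 stood apart at 870 and 879 CPM (101 and 374 cells). The other 3 sheath clusters lay between 240 and 357 CPM. Sox9 stood at 54.8 and 67.4 CPM in the Fhod3 cluster and between 177 and 646 CPM in the other 3. An unnamed cluster led by St6galnac3, Gramd1b and Hmcn1 (29 and 255 cells) had 407 and 329 CPM, within the range of the sheath class. Most Tcf7l1 UMIs nevertheless came from other cells, with 41.1% in fibroblast-like cells, which held 33.5% of all UMIs, and 17.4% in the sheath with 6.10% of all UMIs.

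Tcf7l2 was likewise highest in outer root sheath-like cells, at 365 and 491 CPM, with no overlap with another named class. Schwann-like (204 and 292), dermal papilla-like (187 and 245), mural (207 and 221), fibroblast-like (182 and 246) and endothelial-like cells (174 and 198) overlapped in that order. Matrix-like cells had 112 and 145 CPM, cortex and cuticle-like 57.4 and 84.5, and medulla-like 52.6 and 80.4. From Schwann-like cells down, each class overlapped the one above it, to T cell-like cells at 28.1 and 94.2 CPM. The same Fhod3 cluster of the sheath had 906 and 848 CPM, but 4 unnamed clusters had a mean above that of the sheath class. Those led by Csn3, Spp1 and Wfdc18 (670 and 978 CPM, with Tcf7l1 at 45.0 and 55.3), by Adamts18, Col11a1 and Ednrb (719 and 780) and by St6galnac3, Gramd1b and Hmcn1 (558 and 580) exceeded it without overlap, and that led by Car3, Fgf10 and Far2 (425 and 467) overlapped it. Unnamed cells held 35.8% of Tcf7l2 UMIs with 24.5% of all UMIs, the largest share.

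**Figure D4:**
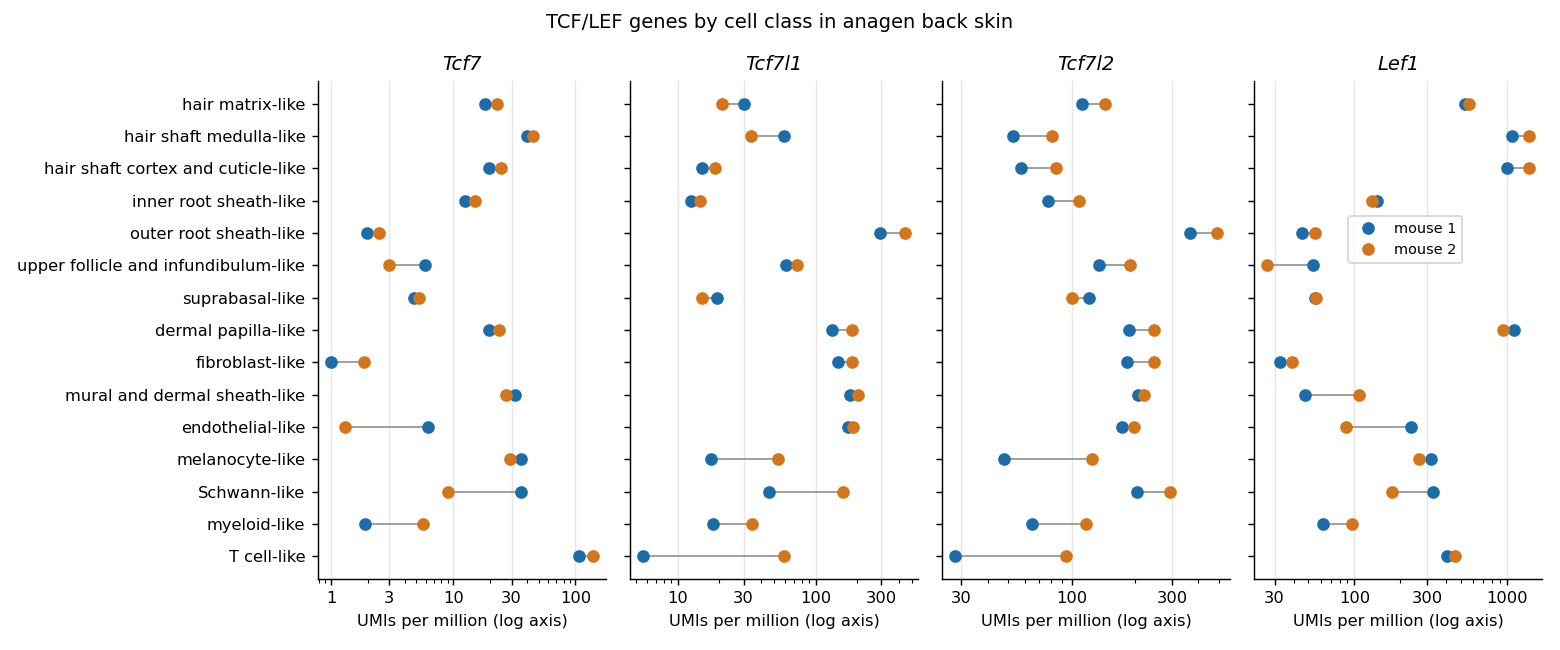
Level of each TCF/LEF gene in 15 named cell classes of anagen back skin, in CPM on a log axis, with mice joined by a line. Lef1 peaks in medulla, cortex and dermal papilla-like cells, Tcf7 in T cell-like cells, and Tcf7l1 and Tcf7l2 in outer root sheath-like cells.

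Because cells differ in depth, each was thinned to 3000 UMIs and the share of cells with at least 1 UMI was counted. Lef1 was found in 64.3% and 66.2% of matrix-like cells and 10.9% and 13.1% of sheath-like cells (85.4% and 88.9%, and 22.7% and 30.0%, before thinning), and in 91.1% and 93.1% of medulla-like cells. An unnamed cluster led by hemoglobin genes gave 22.7% and 14.7%, and myeloid-like cells 12.963% and 19.0%. The hemoglobin-led cluster was chosen after its values were seen, because red cells should lack these genes. The sheath share of Lef1 lay below both in each mouse, and the part of free RNA in it was not tested. In CPM, Lef1 stood at 155 and 123 in the hemoglobin-led cluster, above sheath-like cells at 45.2 and 55.2. Median depth of that cluster was 5807.5 and 4933.5 UMIs, against 11600 and 14867 in matrix-like and 6871 and 8094 in sheath-like cells. Tcf7l1 was found in 48.7% and 65.5% of sheath-like, 8.49% and 4.73% of matrix-like and 8.00% and 7.75% of hemoglobin-led cells. The matrix-like share was thus near or below that of hemoglobin-led cells. In myeloid-like cells the Tcf7l1 share was 4.32% and 6.44%, below matrix-like cells in mouse 1 and above them in mouse 2. Tcf7l2 was found in 60.8% and 70.2% of sheath-like and 27.8% and 33.6% of matrix-like cells, with 18.7% and 13.2% in hemoglobin-led cells. Tcf7 was found in 4.65% and 5.60% of matrix-like, 0.572% and 0.879% of sheath-like and 1.33% and 0.0% of hemoglobin-led cells, with 0.617% and 1.02% in myeloid-like cells.

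The hair matrix, the proliferating cells that build the hair, and the outer root sheath were compared directly as ratios of summed CPM within each mouse. In log2 units, matrix over sheath, Lef1 was at 3.53 and 3.34 and Tcf7 at 2.71 and 2.76, while Tcf7l2 was at -1.69 and -1.75 and Tcf7l1 at -3.24 and -4.35. Both mice thus gave the same direction for each member, 2 higher and 2 lower in the matrix, by more than 2 fold. The shares of cells with Lef1 and Tcf7 in the sheath, and with Tcf7l1 in the matrix, were near or below those in hemoglobin-led or myeloid-like cells. The part of free RNA in these low levels was not tested, so their ratios are not exact sizes. Of 9539 genes with enough UMIs, 11.2% were higher and 14.4% lower by more than 2 fold in both mice, and with 1 pair of classes in 2 mice no test was made. Without the Fhod3 cluster, a setting chosen after seeing the data, the ratios were 2.79 and 2.93 (Tcf7), -3.00 and -3.81 (Tcf7l1), -1.52 and -1.37 (Tcf7l2) and 3.67 and 3.51 (Lef1).

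At a coarser clustering (Leiden resolution 0.5), the name hair matrix-like fell on another set of cells, of which 1.04% had been matrix-like and 62.1% came from the Cdh6 cluster. The mean log2 ratio was then 2.39 for Tcf7, -2.33 for Tcf7l1, 0.00343 for Tcf7l2 and 5.04 for Lef1, so the lower level of Tcf7l2 depends on which cells carry the name. Clustered alone, mouse 2 gave 291 such cells, 2.06% of them matrix-like before, with -0.64 for Tcf7l2 and 5.30 for Lef1. Of fibroblast genes, Dcn was at 1448 and 1606 CPM in matrix-like against 179 and 277 in sheath-like cells, whereas Col1a1 was at 391 and 697 against 459 and 852, and the other 4 measured fibroblast markers did not pass 2 fold. The part of fibroblast RNA in the ratios was not tested.

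Canonical WNT targets were mostly higher on the side of Lef1 and Tcf7. The counts below are to be read against the 11.2% of 9539 genes that were higher and the 14.4% that were lower. Of 12 measured in matrix and sheath, 7 were higher in matrix-like cells (Axin2, Znrf3, Apcdd1, Tnfrsf19, Bmp4, Edar and Wif1) and 1 was lower (Lgr5), with a median log2 ratio of 1.58, against 0.02 over all genes. Axin2 stood at 32.7 and 39.5 CPM in matrix-like and 3.02 and 4.58 in sheath-like cells, and Edar at 42.1 and 68.8 against 2.12 and 5.28. Lgr5, a receptor for R-spondin, stood at 45.8 and 50.9 against 472 and 760 CPM, but it is also among the markers that name the sheath, so its ratio follows in part from the naming. Of 9 co-repressors and kinases measured, 3 were lower in the matrix (Tle1, Tle4 and Tnik, the kinase that phosphorylates TCF7L2) and 0 higher. Of 10 β-catenin partners 1 was higher (Cby1) and 2 lower (Jup and Bcl9l), and Ctnnb1 itself stood at 276 and 294 against 259 and 229 CPM. None of the 11 genes of the destruction complex and Dishevelled passed 2 fold in both mice. The counts of β-catenin partners lie near the shares over all genes. List ratios are given for the main clustering only, and at the coarser clustering the name hair matrix-like fell mostly on other cells.

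**Figure D5:**
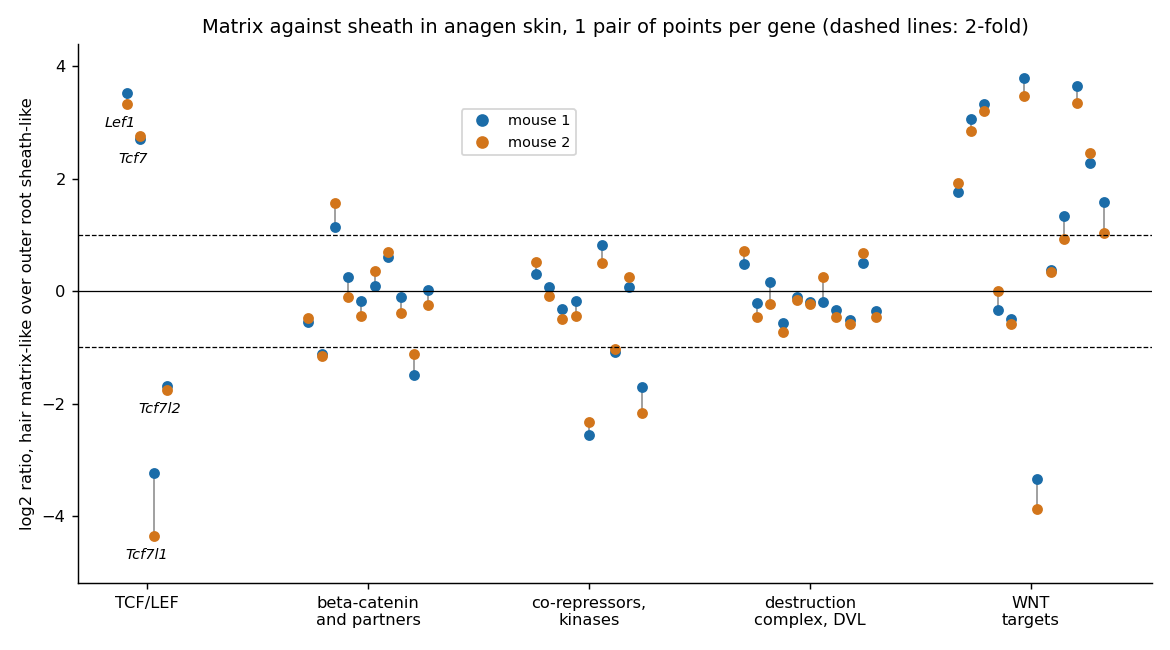
Log2 ratio of hair matrix-like over outer root sheath-like levels in anagen skin for the TCF/LEF genes and 4 groups of pathway genes, with 1 pair of points per gene for the 2 mice. Lef1 and Tcf7 lie above the upper 2-fold line with most WNT targets, and Tcf7l1 and Tcf7l2 lie below the lower line in both mice.

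Over the 41 clusters, the members paired in the same way. The correlation of log2 levels was 0.66 between Tcf7 and Lef1 and 0.75 between Tcf7l1 and Tcf7l2, and lay between -0.20 and -0.35 for the other 4 pairs. The genes most like Lef1 were Tnfrsf19 (0.84), itself on the list of WNT targets, Wfdc8 (0.81) and Cdh6 (0.81). The genes most like Tcf7l1 were Kirrel (0.87), Apbb2 (0.87) and Rbms3 (0.85), and those most like Tcf7 were Kcnmb4 (0.79), Atpaf1 (0.71) and Slc7a5 (0.71). Tcf7l2 was most like Lpp (0.76), Enox1 (0.76) and Tcf7l1 (0.75), out of 9430 genes. Clusters share libraries and differ in depth, and these values describe them only.

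Within single cells thinned to 3000 UMIs, Tcf7l1 and Tcf7l2 were counted together in 11.4% and 18.5% of all cells, above the 8.78% and 14.7% that their separate shares give as a product. Tcf7 and Lef1 were together in 1.58% and 1.6% of cells, against products of 0.779% and 0.759%. Tcf7l1 and Lef1 were together in 4.42% and 5.77%, below 7.19% and 8.81%, and Tcf7l2 and Lef1 in 7.67% and 10.7%, below 10.4% and 12.7%. Inside a class the shares came close to the products, as for Tcf7l1 with Tcf7l2 in sheath-like cells (31.7% and 47.2%, against 29.6% and 46.0%) and Tcf7l2 with Lef1 in matrix-like cells (16.2% and 22.8%, against 17.9% and 22.2%). Sox9, the sheath and stem cell factor, was counted with Tcf7l1 in 2.12% and 3.16% of cells (products 1.6% and 2.25%) and with Lef1 in 0.917% and 1.11% (1.89% and 1.94%). The part of free RNA and depth in such shares was not tested.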

How the data were processed

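RNA-seq values are estimated counts per gene, which the authors obtained with Salmon 1.4.0 on mm10 and deposited without normalization, beside a normalized signal per gene of the kind DESeq2 gives, which only the limma alternative used. Single cell files hold UMI counts per gene and barcode that the authors deposited as Cell Ranger wrote them, before removal of free RNA or doublets. Whether intronic reads were counted is not given in the sources used here. ATAC-seq and CUT&RUN samples were not analysed here.

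Estimated counts were rounded and fitted with edgeR 4.0.16 in R 4.3.3 (filterByExpr, TMM factors, the quasi-likelihood test, Benjamini-Hochberg adjustment over all 15965 genes tested, adjusted p under 0.05), with 1 mean for each of 4 groups of 2 libraries. The fit was tested on simulated data. CPM are TMM-scaled, SDs are over 2 libraries, and residual degrees of freedom were 4. The labels give 1 mouse the same number in both media of its genotype. The correlation of the deviations of same-numbered libraries was 0.0668 for wild-type and -0.0188 for Rxra cKO.

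Barcodes with fewer than 500 genes, fewer than 1000 UMIs or at least 10% mitochondrial UMIs were dropped. Hashtag calls used Seurat 5.3.0 (HTODemux), and doublets were found in skin with Scrublet in scanpy 1.11.5 (6.45% and 4.64% removed). Skin was clustered on 2000 variable genes without the members and the WNT lists, 30 principal components, 20 neighbors and Leiden resolution 1.0 (seed 11). Culture sums of at least 5 cells were fitted with edgeR over 10 sums, called at an adjusted p below 0.01 with a log2 change above 1 either way. A ratio in skin needed 10 CPM in a class, likeness used log2(CPM + 1) of genes at 50 CPM or more in a cluster, and a count of 0 was bounded by 3 counts. Intervals are exact at 95%.

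Genes named are the members, every list gene called or chosen as an example, markers, and for each member the 3 genes most like it. Members and lists were chosen with earlier results of these data known. Alternatives were DESeq2 1.42.0, upper quartile factors, no filter, limma 3.58.1 on the normalized signal, other thresholds, a replicate block, each library left out, and other rules for hashtags, cells and clusters.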

Additional observations from a re-analysis of the deposited data

Results flagged for a closer look

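For Tcf7l1, the medium effect in wild-type minus that in Rxra cKO was -0.89 on the log2 scale and did not pass the test. It is listed because both wild-type mice fell and both mice labelled cKO rose from FBS to atRA+PKCi. Among the pathway genes, the same difference passed the test of the interaction for 15 genes (adjusted p under 0.05, edgeR). Over all genes, 11.3% were called higher and 13.3% lower. By group, the calls were 2 higher and 2 lower of 11 β-catenin genes and 0 of 11 co-repressors. In the destruction complex they were 1 and 3 of 12, and among the targets 4 and 3 of 11. The difference was positive for Ctnnb1 (0.64), Cby1 (0.56), Amer1 (0.65), Notum (1.14), Znrf3 (0.59), Ccnd1 (0.80) and Edar (1.30). It was negative for Jup (-1.15), Ctnnbip1 (-0.54), Gsk3a (-0.45), Csnk1a1 (-0.51), Dvl1 (-0.60), Axin2 (-1.87), Apcdd1 (-2.24) and Myc (-0.75). These differences kept their call in all 8 fits that left out 1 library for Ctnnb1, Jup, Csnk1a1, Dvl1, Axin2, Ccnd1, Myc and Edar. The call was kept in 7 of 8 fits for Ctnnbip1, 6 for Cby1, 4 for Gsk3a, 3 for Amer1, 2 for Apcdd1 and 1 each for Notum and Znrf3. Groups of 2 libraries are too small for a check of single outlying samples.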

How the results depend on the processing

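A design of 2 libraries per group, few cells in most culture conditions and 2 skin mice limit these results. Tcf7, which did not change with medium, crossed 0 in wild-type with DESeq2 (-0.0103), no filter (-0.00539) and limma (-0.0125 at both pseudocounts), and in the interaction with DESeq2 (-0.0320), no filter (-0.0155) and limma (-0.0502 and -0.0503). With the replicate block, which pairs the cultures of 1 mouse, Tcf7l1 passed the test for the wild-type medium effect (-0.46) and the interaction (-0.86), as it did with no filter (-0.51 and -0.91), and the block changed no other call of a member. The cKO medium effect of Tcf7l1 passed with only its 4 libraries (0.41). At adjusted p under 0.01 and a fold over 2, Tcf7l2 (0.95 and 0.50) and Tcf7l1 in FBS (-0.76) were no longer called, and by DESeq2 neither was Tcf7l2 in cKO (0.50).

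Leaving out each library in turn, medium effects lay between -0.0872 and 0.12 (Tcf7), -0.80 and -0.0943 (Tcf7l1) and 0.78 and 1.14 (Tcf7l2) in wild-type, and between -0.0708 and 0.13, 0.40 and 0.44, and 0.39 and 0.64 in cKO. Genotype effects lay between -0.39 and -0.18, -1.07 and -0.37, and 0.06 and 0.42 in FBS, and between -0.31 and -0.23, -0.0160 and 0.33, and -0.31 and -0.10 in atRA+PKCi. Interactions lay between -0.13 and 0.11, -1.20 and -0.50, and 0.28 and 0.64. In culture cells, Tcf7l2 in Rspo against B-27 turned to 0.44 with the 70% hashtag rule and to 0.23 under 20% mitochondrial UMIs. Without single sums it lay between -0.33 and -0.03 there, 1.09 and 1.38 for BMP2/4 against B-27, 0.11 and 0.60 for Rspo+BMP2/4 against BMP2/4, 1.46 and 1.94 against Rspo, and -0.10 and 1.21 with RARi.

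The skin ratios at the coarser clustering were 2.39 (Tcf7), -2.33 (Tcf7l1), 0.00343 (Tcf7l2) and 5.04 (Lef1). With doublets kept they were 2.26 for Tcf7 and -1.26 for Tcf7l2, and with members and WNT lists among the clustering genes 2.46, -1.19 and 3.81 for Tcf7, Tcf7l2 and Lef1. Without the Fhod3 cluster of the sheath they were 2.86, -1.44 and 3.59 for these 3. Each mouse clustered alone gave 1.91 to 2.85 (Tcf7), -3.09 to -3.05 (Tcf7l1), -1.35 to -0.64 (Tcf7l2) and 3.55 to 5.30 (Lef1). At 1000 genes and under 5% mitochondrial UMIs no cluster was hair matrix-like, and no culture condition kept 5 cells in both mice, so no test was made. Mouse 1 then kept 16 cells in BMP2/4 and 11 in Rspo+BMP2/4, with Tcf7l2 at 235 and 473 CPM.

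The number of genes called fell at the stricter threshold from 8599 to 2960 and 6861 to 1858 (medium in wild-type and cKO), 6840 to 1761 and 6895 to 2081 (genotype in FBS and atRA+PKCi) and 3924 to 1134 (interaction). Without cKO atRA+PKCi replicate 1 they were 4543 for the cKO medium effect, and without that library or replicate 2 they were 2458 and 2392 for the interaction. BMP2/4 against B-27 gave 358 calls, 615 with the 70% rule and 650 at adjusted p under 0.05, and 61 to 233 without a sum. Rspo against B-27 gave 125, and 330 with no filter, 300 with the 70% rule, 419 at adjusted p under 0.05 and 0 to 84 without a sum. Upper quartile factors moved the split of genotype calls in FBS from 3565 higher and 3275 lower to 4378 and 2586, and that of wild-type medium calls from 4350 and 4249 to 5305 and 3487, as the median of all genes shifted from 0.0154 to 0.109 and from 0.0343 to 0.151.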
